A study of Mus musculus with 167 samples.

Results

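The 32 mouse genes described here encode lysosomal hydrolases, their cofactors and partners, membrane proteins of the lysosome, subunits of its proton pump and the transcription factors Tfeb, Tfe3 and Mitf. They were taken by symbol from a fixed list that leaves out the cathepsins, and all 32 were found among the 57010 Ensembl identifiers of the count table. By role they comprise 9 luminal hydrolases, 3 luminal proteins that are not enzymes, 5 membrane proteins, 5 subunits of the V1 part and 5 of the V0 part of the pump, 2 accessory subunits and 3 factors.

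Lysosomes break down proteins, lipids and sugar chains taken up from outside or delivered by autophagy, and their enzymes work at acid pH. The vacuolar ATPase (V-ATPase) makes that pH: its V1 part, in the cytosol, splits ATP, and its V0 part, in the membrane, carries protons inward. Tfeb, Tfe3 and Mitf form the MiT/TFE family of factors, which bind the E-box CACGTG in many lysosomal genes (the CLEAR network) and are held in the cytosol when mTORC1 is active. In dendritic cells, the leukocytes that take up antigen and present it to T cells, acidification and proteolysis are known to be more restrained than in macrophages.

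RNA was sequenced from sorted mouse cells of 41 groups. Mouse embryonic fibroblasts (MEFs) of the C9a line, double homozygous for Clec9a Cre and Rosa26 tdTomato, were transduced with lentivirus for PIB (Spi1, Irf8, Batf3), PIP (Spi1, Irf4, Prdm1) or SII (Spib, Irf8, Ikzf2). SII was also put into MEFs of the hCD2 line, heterozygous for hCD2 Cre and Rosa26 YFP on C57BL/6. Cells were sorted on day 3, 6 or 9 by CD45, by the reporter or by both, and untransduced MEFs of each line and wildtype splenic dendritic cells were the references. The splenic cells were type 1 conventional dendritic cells (cDC1, positive for CD11c, MHC-II and XCR1 and negative for CD11b), type 2 (cDC2, CD11b in place of XCR1) and plasmacytoid dendritic cells (pDC, positive for CD11c, Siglec-H, B220 and BST2). A Cre reporter marks any cell whose driver was active at some time, not the cell's state when it was sorted. Most values below are from cells positive for both the reporter and CD45, called double positive, and from these references: n was 4 for untransduced C9a.MEF and 4 for hCD2.MEF, 5 for PIB on day 9, 4 for PIP, 4 for C9a.SII, 3 for hCD2.SII, 3 for cDC1, 3 for cDC2 and 5 for pDC. On day 3 there were 3 double positive libraries of PIP and 4 of each other cocktail and line. The labels do not say whether libraries of a group came from separate cultures or animals, so the tests measure the spread between these libraries, which may be technical.

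Total counts ran from 1146927 to 21976374 per library, with a median of 10960122, and all but 2 libraries had over 2000000. The factor that sets a cocktail apart was present at 10 CPM (reads relative to the library's total) or more in all but 3 of the transduced libraries: Batf3 in 36 of 37 labelled PIB, Irf4 in 37 of 38 labelled PIP, and Spib in 37 of 38 labelled C9a.SII and 35 of 35 labelled hCD2.SII. The 3 exceptions, all of reporter gates on day 3 or 6, carried the factors of another cocktail and entered no comparison of 2 groups. Fibroblast markers (14 genes) summed to 22204 to 24379 CPM in C9a.MEF. In day 9 double positive cells of that line they summed to 7845 to 9290 CPM in PIB, 3105 to 3651 CPM in C9a.SII and 1438 to 1704 CPM in PIP. The 10 pan-leukocyte markers summed to a median of 120.3 CPM in C9a.MEF, with Tyrobp at 0 in every library, and to 404 to 1026 CPM in day 9 double positive cells of that line. Some of these libraries stood apart from their group in these markers: hCD2.SII day 9 replicate 1 had a fibroblast sum of 12024 CPM against 1142 and 1291, PIP day 3 replicate 3 a leukocyte sum of 121.1 CPM against 271 and 282, C9a.SII day 3 replicate 2 one of 296, and pDC replicate 1 one of 831 CPM at 1838064 counts. Counts of called genes in comparisons that include them are also given without them.

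The E-box is shown first, since it is the known target site of the listed factors. It was read from reference promoter sequences and was not measured in these cells. Promoter windows from 250 bases before to 50 after the start (RefSeq, build GRCm38.p6) were on hand for 26 of the 32 genes. CACGTG, searched on both strands and identical on each, was in 8 of the 26 (30.8%) and in 11.5% of the 10659 tested genes that have a window, or 8.09% of all 27025. The longer TCACGTGA, which contains it, was in 4 of the 26 (15.4%) against 2.11% and 1.12%. These shares are a description of the letters present and no test was made of them. The stretches below hold the E-boxes of 7 of those genes, written 5′ to 3′ on the strand of the gene with CACGTG or TCACGTGA in capitals. The eighth gene, Atp6v0d1, has its TCACGTGA across the start site and is not printed.
Lamp1, chr8:13159088-13159160, plus strand: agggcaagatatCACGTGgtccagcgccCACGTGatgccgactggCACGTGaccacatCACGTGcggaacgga
Atp6v0b, chr4:117887330-117887377, minus strand: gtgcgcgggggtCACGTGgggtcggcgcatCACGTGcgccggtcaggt
Mcoln1, chr8:3500436-3500486, plus strand: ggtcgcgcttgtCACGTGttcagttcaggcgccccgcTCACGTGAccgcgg
Gla, chrX:134601182-134601244, minus strand: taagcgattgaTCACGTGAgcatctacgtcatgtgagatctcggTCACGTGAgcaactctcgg
Atp6v1a, chr16:44139373-44139402, minus strand: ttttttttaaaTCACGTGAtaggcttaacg
Glb1, chr9:114401018-114401047, plus strand: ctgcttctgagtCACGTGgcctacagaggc
Gaa, chr11:119267811-119267840, plus strand: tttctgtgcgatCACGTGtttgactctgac
Lamp1 held 4 E-boxes in 73 bases directly before its start, and Gla held 2 of the longer form. TCATGTG, the M-box letters of Mitf, was in 5 windows (19.2%, against 2.64% of tested genes) and GAGGAAGT, the letters of a PU.1 site, in 2 (7.69%, against 3.57%), those of Gla and Gusb.

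In untransduced C9a.MEF the highest levels per kb of exon were those of Psap (276 CPM per kb), the precursor of the saposins that activate sphingolipid hydrolases, Lamp1 (252), an abundant glycoprotein of the lysosomal membrane, and Grn (96.6), the precursor of granulins. The lowest was Atp6v0d2. Psap also led in every day 9 double positive group and in all 3 splenic subsets, at 1752 CPM per kb in cDC1, where Gusb followed at 63.7. All 32 genes together took 4322 to 4579 CPM in C9a.MEF (mean 4448, n = 4), 12278 ± 870 CPM (SD, n = 5) in PIB and 12895 ± 1239 (n = 4) in PIP on day 9, and 6057 ± 775 (n = 4) in C9a.SII. In the hCD2 line the sum was 3694 ± 336 (n = 4) in MEFs and 5843 ± 449 (n = 3) with SII.

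Against untransduced MEFs, more of these genes were called higher on day 9 with PIP and PIB than with SII, and in none of the 4 comparisons was one called lower. Genes are called when edgeR's adjusted p is below 0.05 and the fold is 2 or more. They are then said to rise or fall, or to be raised or lowered, which names a difference between groups. Fold changes are on the log2 scale with standard errors. PIB raised 19 of 32, or 18 of 31 without Atp6v0d2, which was tested only through its reads in PIB (of all tested genes 10.4% were called higher and 11.4% lower), PIP 22 of 31 (15.2% and 14.5%), C9a.SII 7 of 31 (10.5% and 10.9%) and hCD2.SII 13 of 31 (10.8% and 8.41%). With no minimum of fold, 32 genes were higher with PIB (29.1% of all tested genes higher, 27.8% lower), 30 with PIP (35.6%, 32.5%), 22 with C9a.SII, where 2 were lower (23.4%, 24.3%), and 24 with hCD2.SII (20.2%, 17.8%). The median log2 fold change of the tested genes was 1.05, 1.35, 0.54 and 0.94 in that order, against -0.00, 0.05, 0.03 and 0.01 over all tested genes. The first 3 comparisons share the same 4 C9a.MEF libraries. The MEFs were untransduced and their labels give no day. Transduction, days of culture and sorting gate thus differ along with the cocktail and cannot be told apart from it. Gusb, Man2b1, Asah1, Grn, Mcoln1, Atp6v1b2 and Atp6v0b were called higher in all 4, and Lamp2, Gaa, Glb1 and Tfe3 in none. Because these are bulk samples, a difference in the share of cells that express a gene and a difference in RNA per cell cannot be told apart.

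**Figure D1:**
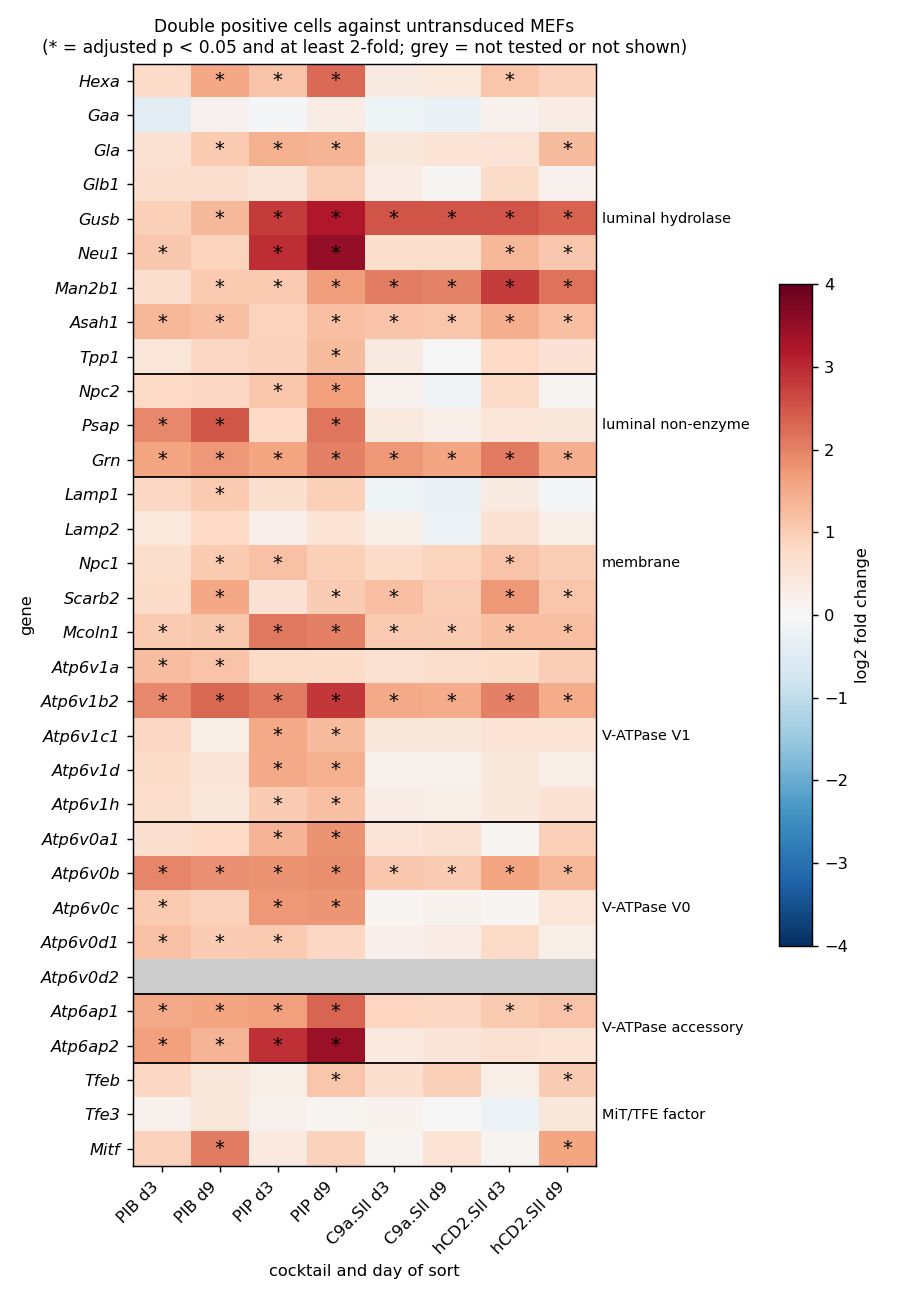
Log2 fold change (colour) of each gene (rows, grouped by role) in double positive cells of each cocktail and day (columns) against untransduced MEFs of the same line, with called genes starred. Called cells are all red, and stars are densest under PIP on day 9 (22 genes) and fewest under C9a.SII on day 9 (7 genes).

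Markers of other cell types differed between these groups too. The 10 macrophage markers summed to 746 to 1075 CPM in PIB on day 9, with 8 of 10 at a median above 1 CPM, to 87.1 to 140.9 CPM in PIP (6 of 10), to 57 to 224 CPM in C9a.SII (7 of 10) and to 17.4 to 55.5 CPM in hCD2.SII (5 of 10), against 7.74 to 9.25 CPM in C9a.MEF. The part of such cells in the changes was not tested. Granulocyte markers summed to at most 11.1 CPM in day 9 double positive cells, against 0.468 to 0.803 CPM in C9a.MEF. S100a9 was at 0 in every library of these groups, C9a.MEF included. The 1 granulocyte gene tested was called higher with PIB (6.24) and PIP (5.77). B cell markers summed to at most 6.46 CPM, against 0.873 to 1.48 CPM in C9a.MEF. The 1 B cell gene tested was called higher with PIP (2.34) and not with PIB (0.81) or hCD2.SII (0.56). Erythroid markers summed to 2.18 to 4.68 CPM in hCD2.SII, against 0.293 to 0.446 CPM in hCD2.MEF, and the 1 tested there was called higher (7.61). Of the 8 pan-leukocyte genes tested with PIP, 7 were called higher and 1 lower.

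Among the luminal hydrolases the largest changes were in Neu1 and Gusb with PIP and in Gusb and Man2b1 with SII. PIP raised 7 of the 9 hydrolases (15.2% of all tested genes were called higher), PIB 5 (10.4%), hCD2.SII 5 (10.8%) and C9a.SII 3 (10.5%). Neu1 (chr17:34931253-34935953 in mm10), the sialidase that trims sialic acid from glycoproteins, measured 200, 224, 187 and 236 CPM in the 4 PIP libraries and 18.9, 17, 19.4 and 21 CPM in C9a.MEF. Every PIP library stood far above every MEF library, a log2 fold change of 3.53 ± 0.07 (adjusted p = 6.7e-17). In PIB Neu1 was at 33.9, 36.1, 40.8, 35.7 and 31.3 CPM, above MEFs without overlap but below the 2-fold line (0.88 ± 0.09, adjusted p = 1.2e-06). With C9a.SII it was at 24.1, 35.3, 27.3 and 29.7 CPM (0.69 ± 0.11).

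Gusb (chr5:129989011-130003049), the beta-glucuronidase that removes glucuronic acid from glycosaminoglycans, was at 40.2, 41.9, 40.7 and 39.7 CPM in C9a.MEF. It measured 338, 393, 319 and 396 CPM in PIP, 195, 255, 218 and 230 CPM in C9a.SII, and 94.2, 96.3, 106.6, 103.1 and 107.7 CPM in PIB. The 4 groups did not overlap and fell in the order PIP, C9a.SII, PIB, MEF, with log2 fold changes against MEFs of 3.21 ± 0.06 (adjusted p = 2.9e-17), 2.53 ± 0.08 (3e-09) and 1.30 ± 0.05 (2e-10). In the hCD2 line Gusb was at 126.9, 218 and 169.2 CPM with SII and at 33.3 to 36.9 CPM in MEFs (2.36 ± 0.18, adjusted p = 0.00012), the lowest value being that of the library with the high fibroblast sum.

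Man2b1 (chr8:85083270-85098282), the lysosomal alpha-mannosidase that takes N-glycans apart, was the second gene by size of change with SII in both lines. It was at 269, 330, 313 and 322 CPM in C9a.SII and 81.2 to 82.8 CPM in C9a.MEF (1.97 ± 0.07, adjusted p = 5.2e-09). In hCD2.SII it was at 170, 311 and 269 CPM against 50 to 73.2 CPM in hCD2.MEF (2.16 ± 0.22, adjusted p = 0.00043), again lowest in replicate 1 and again without overlap. PIB (152.3 to 186 CPM) and PIP (213 to 283 CPM) also raised it, by 1.06 ± 0.06 and 1.68 ± 0.06.

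Hexa, the alpha subunit of the hexosaminidase that degrades GM2 ganglioside, rose with PIP (576, 670, 526 and 661 CPM) and PIB (397, 390, 410, 399 and 391 CPM) over MEFs (128.8 to 141.2 CPM), by 2.25 ± 0.06 (adjusted p = 2.6e-15) and 1.56 ± 0.05 (2.4e-11). C9a.SII overlapped MEFs, at 128.1 to 189 CPM. Asah1, acid ceramidase, rose with every cocktail, by 1.19 ± 0.06 with PIB, 1.21 ± 0.05 with PIP, 1.12 ± 0.08 with C9a.SII and 1.20 ± 0.12 with hCD2.SII. Gla, alpha-galactosidase A, rose with PIB (1.05 ± 0.12), PIP (1.35 ± 0.07) and hCD2.SII (1.26 ± 0.11), and Tpp1, a peptidase that removes tripeptides, with PIP alone among the calls (1.26 ± 0.05). Gaa, acid alpha-glucosidase, was not called in any of the 4: 456 to 525 CPM in PIB and 417 to 464 CPM in MEFs (0.16 ± 0.05), 0.30 ± 0.05 with PIP, 232 to 406 CPM with C9a.SII (-0.27 ± 0.13, adjusted p = 0.105) and 0.31 ± 0.18 with hCD2.SII. Glb1, beta-galactosidase, stayed under 2-fold in all 4, from 0.04 ± 0.10 with C9a.SII to 0.99 ± 0.07 with PIP.

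Of the luminal proteins that are not enzymes, Psap rose with PIB and PIP and Grn with all 4. Psap (chr10:60277627-60302597) was at 3913, 3713, 4023, 3930 and 5997 CPM in PIB and 720, 748, 778 and 782 CPM in C9a.MEF. Its log2 fold change was 2.49 ± 0.13 (adjusted p = 4.4e-08), the largest with PIB apart from Atp6v0d2, and replicate 5 lay above the other 4. PIP libraries held 2634, 3525, 3130 and 3458 CPM (2.13 ± 0.06, adjusted p = 6.2e-15). C9a.SII libraries, at 739, 1032, 906 and 846 CPM, overlapped MEFs (0.28 ± 0.08, adjusted p = 0.0124), and hCD2.SII libraries, at 782 to 959 CPM, lay just above hCD2.MEF at 615 to 721 CPM (0.44 ± 0.10). Grn rose with all 4, to 1023 to 1279 CPM in PIB, 1183 to 1430 CPM in PIP and 828 to 1094 CPM in C9a.SII from 323 to 344 CPM (1.72 ± 0.06, 2.03 ± 0.05 and 1.57 ± 0.07), and by 1.46 ± 0.11 in hCD2.SII. Npc2, the soluble carrier that hands cholesterol to Npc1, rose with PIP only among the calls (587 to 758 CPM over 216 to 241 CPM, 1.64 ± 0.06), while C9a.SII was at 175 to 219 CPM (-0.12 ± 0.10).

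Of the 5 membrane proteins PIB raised 4 (10.4% of all tested genes were called higher), PIP 2 (15.2%), C9a.SII 1 (10.5%) and hCD2.SII 2 (10.8%). Lamp1, with its 4 E-boxes, was at 1387, 1397, 1548, 1454 and 1330 CPM in PIB against 654, 656, 675 and 711 CPM in C9a.MEF (1.06 ± 0.05, adjusted p = 1.3e-09). PIP libraries were at 1040 to 1389 CPM (0.95 ± 0.06). C9a.SII libraries, at 503, 551, 541 and 509 CPM, were all below every MEF library, with a log2 fold change of -0.29 ± 0.06 (adjusted p = 0.00233) that was too small for a call. In hCD2.SII Lamp1 did not separate from MEFs (-0.07 ± 0.23). Lamp2, its relative in chaperone-mediated autophagy, was under 2-fold in all 4, at 0.79 ± 0.04 with PIB and -0.23 ± 0.08 with C9a.SII. Mcoln1, the calcium channel TRPML1, rose with every cocktail, by 1.08 ± 0.07, 2.02 ± 0.06, 1.02 ± 0.07 and 1.20 ± 0.12 in the order PIB, PIP, C9a.SII and hCD2.SII. Scarb2, which carries glucocerebrosidase to lysosomes, rose most with PIB (423 to 486 CPM over 143.8 to 157.8 CPM, 1.56 ± 0.05), and Npc1, which moves cholesterol out of lysosomes, rose with PIB (1.05 ± 0.08) and was just under 2-fold with PIP (0.95 ± 0.07) and hCD2.SII (0.99 ± 0.13).

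In the proton pump the rises were uneven, and PIP raised more subunits than the other cocktails did. It raised 4 of 5 V1 subunits, 3 of the 4 V0 subunits tested and both accessory subunits. PIB raised 2 of 5, 3 of 5 (2 of 4 without Atp6v0d2) and 2 of 2 in that order. C9a.SII raised 1 of 5, 1 of 4 and 0 of 2, and hCD2.SII 1 of 5, 1 of 4 and 1 of 2. Of all tested genes 15.2% were called higher with PIP, 10.4% with PIB, 10.5% with C9a.SII and 10.8% with hCD2.SII. Atp6v1b2, a subunit of the ring that splits ATP, was at 245, 238, 264, 248 and 230 CPM in PIB, at 319, 363, 311 and 333 CPM in PIP and at 48.4, 47.1, 48.1 and 51.3 CPM in C9a.MEF. The rises were 2.31 ± 0.05 (adjusted p = 1.9e-12) and 2.82 ± 0.05 (1.8e-17) with no overlap. C9a.SII replicate 1, the shallowest library, was at 70.3 CPM and the others at 138.7 to 158.9 CPM (1.47 ± 0.18, adjusted p = 7.3e-05). Its partner in the ring, Atp6v1a, rose with PIB (204 to 293 CPM over 114.3 ± 2.88 CPM (SD), 1.15 ± 0.09) and was under 2-fold with PIP (157.7 to 201 CPM, 0.72 ± 0.05). The stalk subunits Atp6v1c1, Atp6v1d and Atp6v1h rose with PIP (1.26 ± 0.06, 1.41 ± 0.08 and 1.20 ± 0.06) and were at 0.27 ± 0.09, 0.53 ± 0.06 and 0.46 ± 0.09 with PIB.

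The accessory subunits Atp6ap2 and Atp6ap1, which help to assemble the pump, stood out with PIP. Atp6ap2 (chrX:12587801-12617049), also known as the prorenin receptor, was at 420, 492, 391 and 444 CPM in PIP and 42.9, 38.1, 42.1 and 41.5 CPM in C9a.MEF, a log2 fold change of 3.46 ± 0.06 (adjusted p = 1.4e-17). In PIB it was at 93.8 to 117.1 CPM (1.35 ± 0.08) and in C9a.SII at 52.9 to 61.7 CPM (0.50 ± 0.09), each above MEFs without overlap. Atp6ap1 rose with PIP (437 to 518 CPM over 95.4 to 110.9 CPM, 2.32 ± 0.05), PIB (293 to 332 CPM, 1.59 ± 0.06) and hCD2.SII (1.15 ± 0.14), and in C9a.SII reached 0.83 ± 0.07.

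**Figure D2:**
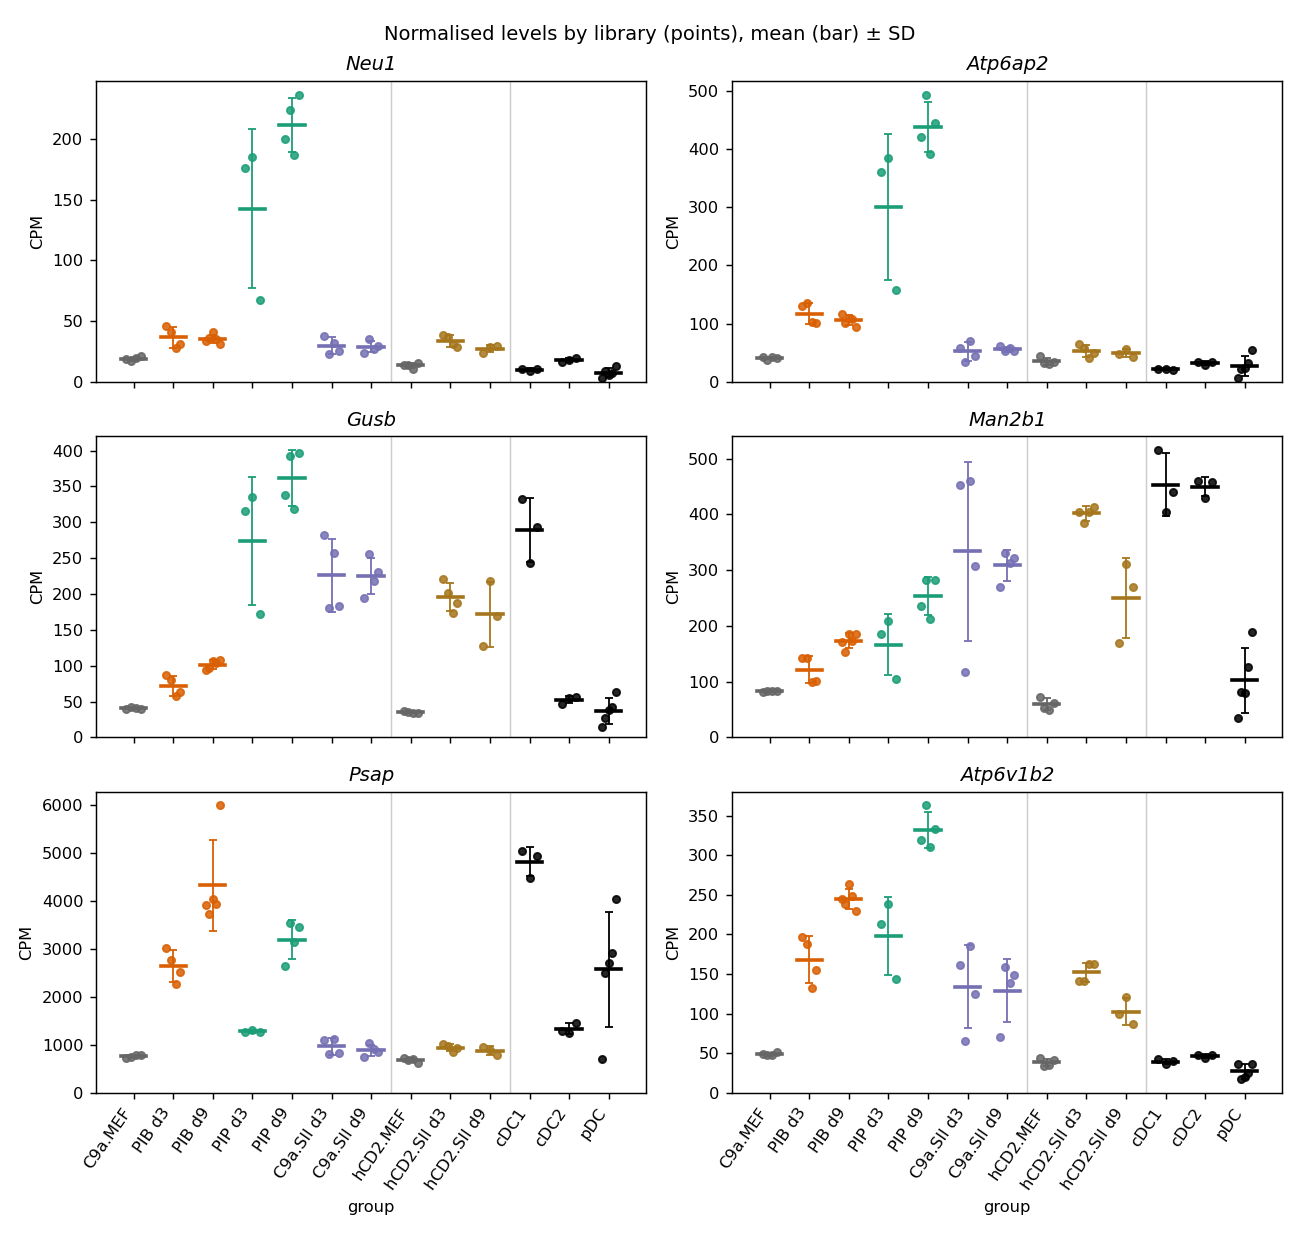
Normalised level (CPM, linear axis from 0) of Neu1, Atp6ap2, Gusb, Man2b1, Psap and Atp6v1b2 in each library (points) of MEFs, day 3 and day 9 double positive cells and splenic subsets, with the mean (bar) and SD. Neu1 and Atp6ap2 are high in PIP only (187 to 236 and 391 to 492 CPM on day 9), and Psap in PIB, PIP, cDC1 and most pDC libraries.

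Within the membrane part, Atp6v0b, a proteolipid of the proton-carrying ring, rose with all 4 cocktails, to 74.8 to 103.3 CPM in PIB, 77.9 to 99.3 CPM in PIP and 45.3 to 55.8 CPM in C9a.SII over 22.6 to 28.3 CPM in MEFs (1.82 ± 0.10, 1.86 ± 0.07 and 1.02 ± 0.09). Atp6v0c, the main proteolipid, rose with PIP (327 to 412 CPM over 114.7 ± 1.77 CPM (SD), 1.78 ± 0.05) and was under 2-fold with PIB (0.91 ± 0.06) and C9a.SII (0.15 ± 0.13). Atp6v0a1, the large subunit through which protons pass, also rose with PIP (147.7 to 181 CPM over 48.5 to 52.2 CPM, 1.79 ± 0.05).

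The d subunit joins the ring to the central stalk and has 2 genes: Atp6v0d1 (chr8:105524465-105566047) is widely expressed, and Atp6v0d2 (chr4:19876841-19922605) is known from osteoclasts, macrophages and kidney. Atp6v0d1 was at 142.3, 149.7, 158.2, 144.2 and 141.7 CPM in PIB, 108.1 to 133.2 CPM in PIP, 69.4 to 93.7 CPM in C9a.SII and 69.6 to 73.5 CPM in C9a.MEF, with log2 fold changes of 1.02 ± 0.05, 0.84 ± 0.06 and 0.31 ± 0.08. In hCD2.SII it was at 55.5 to 84.5 CPM and overlapped hCD2.MEF at 53.4 to 72.1 CPM (0.27 ± 0.14). Atp6v0d2 was near the limit of detection: 11, 26, 24, 11 and 5 reads in the PIB libraries, 77 in all, against 1 read over the 4 C9a.MEF libraries. The ratio of reads per total was 64.4, with an exact 95% interval of 11.2 to 2575 that covers counting error only. It passed the filter on low counts only in the 4 comparisons that include PIB on day 9 without spleen, so its place among those 32 is set by PIB itself. In PIP 1 library had reads (0.336 CPM) and 3 had none, and in C9a.SII replicate 2 had 26 reads (2.78 CPM) and the other 3 none. Macrophage markers summed to 224 CPM in that C9a.SII library and to 57 to 83.1 CPM in the other 3, and a link was not tested. Even in PIB, with Atp6v0d2 at 0.569 to 2.37 CPM, the first gene was far the more abundant in each of the 5 libraries.

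Of the factors, Mitf rose with PIB and hCD2.SII, and Tfeb with PIP and hCD2.SII. Mitf (chr6:97807052-98021349), which also directs pigment cell, mast cell and osteoclast genes, was at 54.8, 50.2, 59.7, 60.1 and 70.1 CPM in PIB against 14.5, 13, 12.9 and 14 CPM in C9a.MEF (2.09 ± 0.09, adjusted p = 5.1e-10). PIP libraries were at 23.3 to 26 CPM, all above MEFs, at 0.92 ± 0.08. C9a.SII libraries were at 7.71, 23.6, 19.2 and 20.7 CPM and straddled MEFs (0.56 ± 0.17), and hCD2.SII, at 14.9, 25.8 and 24.6 CPM, rose over hCD2.MEF at 6.15 to 8.65 CPM (1.58 ± 0.23, adjusted p = 0.0017). Tfeb was scarce: 8.53 to 10.9 CPM in PIB (0.46 ± 0.12), 14 to 14.8 CPM in PIP (1.1 ± 0.11, adjusted p = 1.3e-07), 7.71 to 15.6 CPM in C9a.SII (0.95 ± 0.16) and 6.34 to 7.65 CPM in C9a.MEF. In hCD2.SII it was called (9.66, 15.2 and 15.6 CPM over 4.69 to 8.39 CPM, 1.01 ± 0.28, adjusted p = 0.0216). Tfe3 was at 42.7 to 73.5 CPM in PIB and PIP and 45.3 to 51.1 CPM in C9a.MEF and was not called in any of the 4, with 0.46 ± 0.07 the largest change among the C9a comparisons. These are transcript levels, whereas the family is known to be controlled largely by phosphorylation and location.

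Some of the day 9 calls sit on the 2-fold line and did not survive every alternative. Gla and Atp6v0d1 with PIB, Scarb2 and Tfeb with PIP, Mcoln1, Asah1 and Atp6v0b with C9a.SII, and Neu1, Scarb2, Tfeb and Atp6ap1 with hCD2.SII each lost the call in at least 1 of them, and without the shallow C9a.SII library the count there was 9 (and 4 with no low-count filter), with Scarb2 (1.11) and Tfeb (1.00) added. Without hCD2.SII replicate 1 the count for that line was 15.

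**Figure D3:**
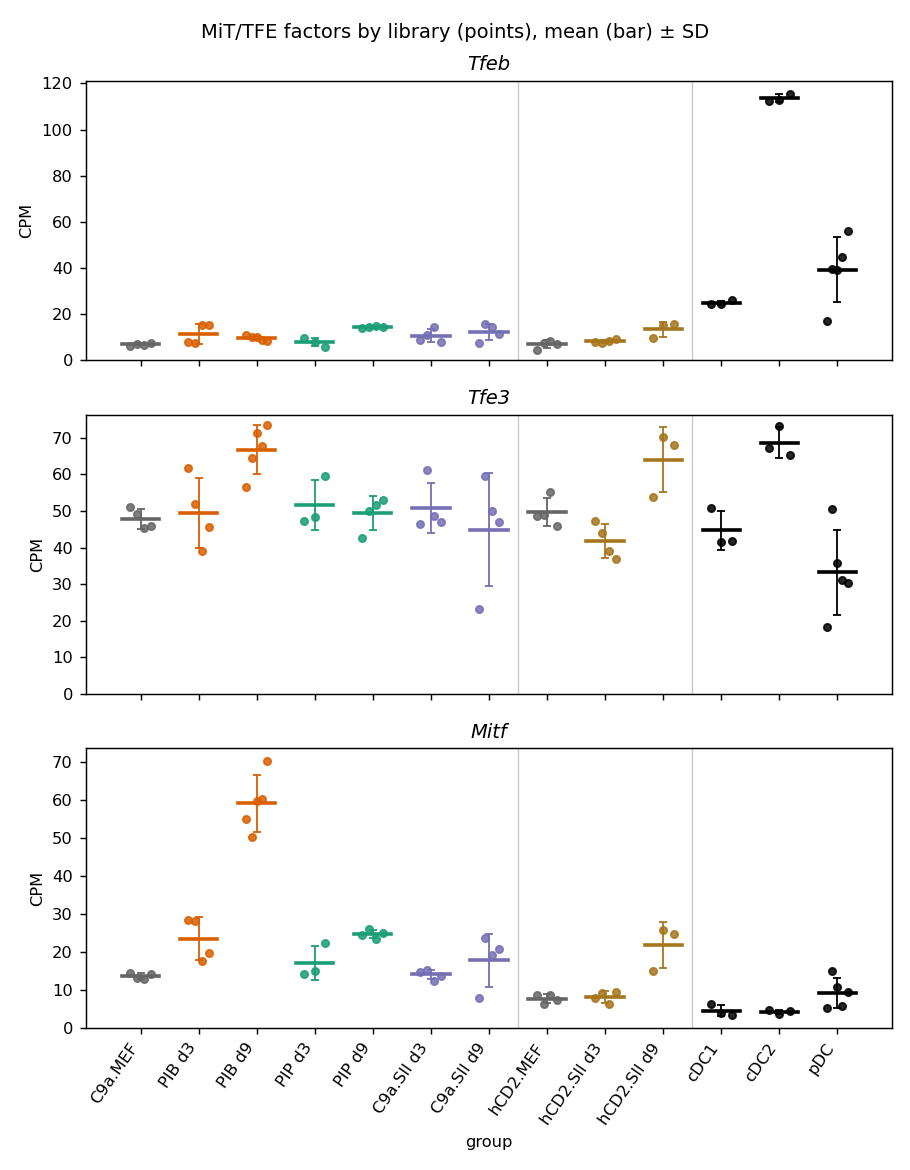
Levels (CPM, linear axis from 0) of Tfeb, Tfe3 and Mitf in each library (points) of the same groups, with mean and SD. Mitf is highest in PIB on day 9 (50.2 to 70.1 CPM) and Tfeb in cDC2 (112.3 to 115.5 CPM), while Tfe3 lies between 18.3 and 73.5 CPM throughout.

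In the direct comparison of cocktails on day 9, Neu1, Atp6ap2 and Gusb were higher in PIP and Mitf in PIB, and few other genes differed 2-fold. PIB against PIP gave 2 genes higher (10.6% of all tested genes) and 3 lower (11%), or 8 (26.2%) and 19 (26.4%) with no minimum of fold, with a median of -0.35. The shares called at 2-fold were thus no larger among these genes than among all tested genes. All 14 fibroblast markers were called higher in PIB than in PIP (median 2.59), and the part of fibroblast RNA in these differences was not tested. Higher in PIB were Mitf (1.20 ± 0.09, adjusted p = 8.9e-08) and the scarce Atp6v0d2, at 0.569 to 2.37 CPM against 0 to 0.336 CPM, which was tested only through its reads in PIB and failed the low-count filter when any of PIB replicates 1 to 4 was left out, so that 1 gene remained. Lower in PIB were Neu1 (-2.62 ± 0.08, adjusted p = 1.3e-11), Atp6ap2 (-2.09 ± 0.08, 1.1e-10) and Gusb (-1.88 ± 0.06, 3.5e-11). Psap (0.39 ± 0.13) and Lamp1 (0.13 ± 0.07), the most abundant genes without a call, differed by less than 2-fold, and Tfeb (-0.62 ± 0.11), Tfe3 (0.38 ± 0.08) and Atp6v0d1 (0.20 ± 0.06) too.

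PIB against C9a.SII gave 5 genes higher (8.57% of all tested genes) and 1 lower (9.92%), or 19 (20.9%) and 3 (18.6%) with no minimum of fold. Psap (2.21 ± 0.14, adjusted p = 4.5e-07), Mitf (1.55 ± 0.18), Lamp1 (1.35 ± 0.07), Hexa (1.15 ± 0.09) and Lamp2 (1.02 ± 0.08) were higher in PIB and Gusb lower (-1.22 ± 0.07, adjusted p = 2.4e-07), while Grn (0.14 ± 0.08) and Gaa (0.43 ± 0.12) were not called. Lamp2 lost its call under 5 alternatives. PIP against C9a.SII gave 12 higher (10.9%) and 0 lower (11.5%), or 23 (23.7%) and 1 (22.1%). Atp6ap2 (2.95 ± 0.10, adjusted p = 5.7e-09), Neu1 (2.84 ± 0.11), Psap (1.85 ± 0.10), Hexa (1.84 ± 0.11), Npc2 (1.76 ± 0.11) and Atp6v0c (1.64 ± 0.15) led, the lowest was Man2b1 (-0.29 ± 0.09), and Grn (0.45 ± 0.08) and Gaa (0.56 ± 0.13) were not called. Atp6v0d1 was at 0.71 ± 0.08 and 0.53 ± 0.09 in these comparisons. Mitf (0.36 ± 0.18), Tfeb (0.16 ± 0.15) and Tfe3 (0.09 ± 0.18) did not reach the threshold between PIP and C9a.SII.

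Whether SII cells differed from MEFs alike in the 2 fibroblast lines was tested as a difference of differences. In it line, genotype and reporter cannot be told apart. None of 31 genes was called higher (0.18% of all tested genes) or lower (0.388%), and none had an adjusted p under 0.05 at any fold (0.292% and 0.551% of all tested genes). Mitf had the largest difference, -1.06 ± 0.31 (adjusted p = 0.144), with Mitf at 0.56 against MEFs in C9a and 1.58 in hCD2. It was called, at -1.25, when hCD2.SII replicate 1 was left out. Lamp1 differed by -0.27 ± 0.24 and Grn by 0.08 ± 0.13, the most abundant without a call. A missed threshold does not show that the lines are alike. In simulations of hCD2.SII against MEFs, 2-fold changes reached an adjusted p under 0.05 in only 44% of cases. The difference of differences itself was not simulated.

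By day 3 a large part of these differences was present. Of 31 genes tested, PIB raised 12 (11.9% of all tested genes higher and 10.9% lower), PIP 19 (10.6% and 11.1%), C9a.SII 8 (8.84% and 8.71%) and hCD2.SII 12 (10.8% and 13.3%), and none was called lower. With no minimum of fold, 28 were higher and 1 lower with PIB (29% and 28.5% of all tested genes), 26 higher with PIP (24.3% and 23.5%), 16 with C9a.SII (17.7% and 17.6%) and 25 with hCD2.SII (27.7% and 28.6%). In PIB the leading genes were Atp6v0b (107.8, 104.9, 72.6 and 74.2 CPM, 1.94 ± 0.08), Psap (3019, 2757, 2255 and 2521 CPM, 1.93 ± 0.05), Atp6v1b2 (1.91 ± 0.06), Atp6ap2 (1.64 ± 0.06), Grn (1.58 ± 0.06) and Atp6ap1 (1.53 ± 0.05), each above every C9a.MEF library. Gaa was the lowest, at 244 to 369 CPM and below every MEF library (-0.43 ± 0.06, adjusted p = 7.2e-05), and Lamp1 (0.84 ± 0.07) was the most abundant gene without a call.

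In PIP on day 3 Neu1 was at 176, 185 and 67.1 CPM (2.95 ± 0.32, adjusted p = 0.00023), Atp6ap2 at 360, 384 and 157.2 CPM (2.92 ± 0.27) and Gusb at 315, 335 and 172 CPM (2.80 ± 0.20). The lowest value of each was that of replicate 3, which also had the low leukocyte and a high fibroblast sum (6413 CPM against 3591 and 3893), and all lay above MEFs. Mcoln1 (2.11 ± 0.14), Atp6v1b2 (2.08 ± 0.14) and Atp6v0b (1.81 ± 0.17) followed, Gaa was at -0.08 ± 0.07, and Psap (1259, 1309 and 1261 CPM, 0.81 ± 0.06) and Lamp1 (0.65 ± 0.13) were not called. Without replicate 3 the count was 21.

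With SII, Gusb, Man2b1, Grn and Atp6v1b2 were the 4 leading genes of day 3 in both lines. In C9a.SII Gusb (181 to 282 CPM, 2.53 ± 0.15), Man2b1 (452, 117.8, 460 and 307 CPM, 2.05 ± 0.33), Grn (1494, 581, 1314 and 913 CPM, 1.72 ± 0.23), Atp6v1b2 (1.5 ± 0.24), Scarb2 (447, 114.6, 433 and 378 CPM, 1.21 ± 0.32) and Asah1 (1.14 ± 0.22) led. Replicate 2, with the low leukocyte sum, was the lowest of each, and for Scarb2 lay below MEFs, so that those groups overlapped. The count was also 8 without it, but 4 with no low-count filter and 5 in 1 fit over all groups. In hCD2.SII Man2b1 (405, 384, 404 and 414 CPM, 2.79 ± 0.10), Gusb (2.51 ± 0.08), Grn (2.07 ± 0.11), Atp6v1b2 (2.01 ± 0.10), Scarb2 (1.73 ± 0.09) and Atp6v0b (1.58 ± 0.08) led, with no overlap. Lamp1 (-0.18 ± 0.13) and Psap (0.40 ± 0.12) in C9a.SII and Psap (0.49 ± 0.07) and Lamp1 (0.37 ± 0.13) in hCD2.SII were not called, and Tfe3 was the lowest in hCD2.SII at -0.23 ± 0.09.

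None of the factors was called on day 3 against MEFs. Mitf was at 17.6 to 28.3 CPM in PIB, above every C9a.MEF library but under 2-fold (0.91 ± 0.10, adjusted p = 3.5e-06). It was at 14.1 to 22.3 CPM in PIP, 12.4 to 15.3 CPM in C9a.SII and 6.14 to 9.36 CPM in hCD2.SII. Tfeb was at 8.04, 7.46, 15.4 and 15.3 CPM in PIB (0.83 ± 0.33, adjusted p = 0.0589), split between the first and last pair of libraries, and at 5.89 to 9.6 CPM in PIP. Tfe3 lay between 36.9 and 61.6 CPM in the 4 groups. Atp6v0d1 rose with PIB (120.2 to 179 CPM, 1.18 ± 0.07) and PIP (106.3 to 175 CPM, 1.05 ± 0.13), reached 0.76 ± 0.10 in hCD2.SII, and was at 0.19 ± 0.17 in C9a.SII, while Atp6v0d2 was at 0 to 0.489 CPM and not tested.

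Between day 3 and day 9 few genes changed. PIB raised 2 of 32 (3.67% of all tested genes higher and 8.47% lower), Mitf (1.15 ± 0.10, adjusted p = 8.4e-06) and Atp6v0d2 (from 0.151 to 0.489 CPM up to 0.569 to 2.37 CPM). The latter was again tested only through its reads in PIB on day 9, and failed the filter without any of replicates 1 to 4, so that Mitf is the 1 gene left. PIP raised 2 of 31 (3.25% and 2.95%), Psap (1.30 ± 0.11, adjusted p = 0.00023) and Hexa (1.09 ± 0.20, adjusted p = 0.00801), and only Psap without day 3 replicate 3, where Hexa was at 0.87. In C9a.SII none of 31 was called in either direction (0.0965% of all tested genes higher and 0.00643% lower, with or without the fold), none had an adjusted p under 0.05, and Mitf was highest at 0.40 ± 0.25. The counts were also 0 without day 3 replicate 2. In hCD2.SII 1 of 31 rose (4.48% and 2.07%), Mitf again (1.52 ± 0.24, adjusted p = 0.00754), and the count was also 1 without day 9 replicate 1. With no minimum of fold, 14 were higher and 4 lower in PIB (18.1% and 19.1% of all tested genes), 10 higher in PIP (7.77% and 7.3%), and 5 higher and 2 lower in hCD2.SII (6.54% and 5.2%). None was called lower in any of the 4, the lowest being Atp6v1c1 in PIB (-0.59 ± 0.10), Atp6v1c1 in PIP (-0.26 ± 0.19), Lamp2 in C9a.SII (-0.45 ± 0.24) and Npc2 in hCD2.SII (-0.61 ± 0.20). Lamp1 and Grn, abundant in all 4 groups, were not called in any, at 0.19 ± 0.08 and 0.10 ± 0.07 in PIB and 0.29 ± 0.15 and 0.45 ± 0.17 in PIP. With SII their mean levels were lower on day 9 than on day 3. Per kb of exon, Grn went from 310 to 276 CPM in C9a.SII and from 381 to 242 CPM in hCD2.SII, and Lamp1 from 216 to 197 CPM and from 240 to 172 CPM.

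The other gates and day 6 are described without a test. Neu1 in PIP had group medians of 131.8 to 212 CPM over the 9 groups of 3 days and 3 gates, and in PIB and both SII lines medians of 18.8 to 48.9 CPM. Single libraries of PIP went lower, to 32.9 CPM in the CD45 gate on day 3. Psap depended on the gate. In PIB its medians were 2639, 4744 and 3930 CPM in double positive cells on days 3, 6 and 9, and 2041, 2349 and 2220 CPM in the reporter gate, while in PIP the highest were in the CD45 gate of day 9, at 3985 to 5286 CPM. In that gate every PIP library was above every PIB library (2226 to 2888 CPM), whereas in double positive cells of day 9 every PIB library was above every PIP library. Gusb with hCD2.SII was at 126.9 to 218 CPM in double positive and 59.6 to 66.3 CPM in reporter-gated cells of day 9, which did not overlap. Man2b1 with hCD2.SII was at 170 to 311 CPM and 78.2 to 89.6 CPM in the same gates. Atp6v0d2 reached 189 reads in 1 library, PIB day 3 CD45 replicate 3, whose 3 partners held 5 to 12.

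The 3 libraries whose factors contradict their labels also stood apart in these genes. The library labelled PIB day 6 reporter replicate 4, in which Irf4 was at 539 and Batf3 at 1.45 CPM, had Neu1 at 217 and Atp6ap2 at 479 CPM, against 29.7 ± 0.994 and 86.9 ± 3.6 CPM (SD, n = 3) in the others of its group. The library labelled C9a.SII day 6 reporter replicate 5, with Irf4 at 658 CPM, had Neu1 at 101.3 and Atp6ap2 at 236 CPM against 22.3 ± 3.73 and 46.1 ± 11.5 CPM (n = 4). In the library labelled PIP day 3 reporter replicate 5, with Spib at 112.4 and Irf4 at 3.94 CPM, Neu1 was at 25 and Atp6ap2 at 20.6 CPM against 195 ± 6.36 and 392 ± 11.2 CPM (n = 4). In reporter-gated PIP of day 6, Neu1 was at 87 to 223 CPM and Atp6ap2 at 193 to 475 CPM.

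**Figure D4:**
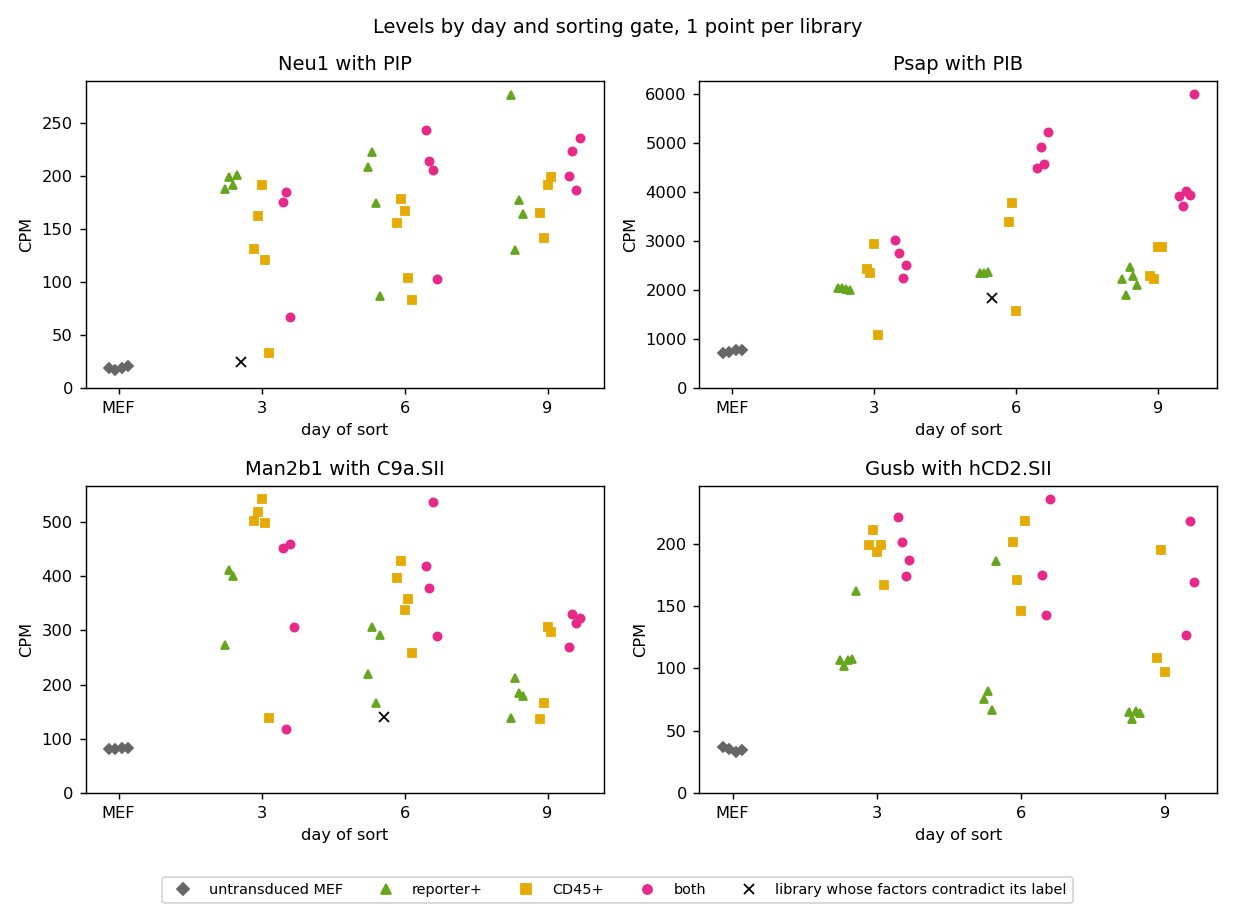
Level (CPM, linear axis from 0) by day of sort of Neu1 with PIP, Psap with PIB, Man2b1 with C9a.SII and Gusb with hCD2.SII, 1 point per library, with the sorting gate as symbol, untransduced MEFs at the left and libraries that contradict their label as crosses. Neu1 with PIP is above every C9a.MEF library (17 to 21 CPM) on each day, lowest in the crossed library at 25 CPM, and Psap with PIB is higher in double positive than in reporter-gated cells on each day.

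Among the splenic subsets cDC1 had the highest Psap and Gusb and cDC2 the highest Tfeb. Levels below use a scale common to all libraries and fold changes one set within each pair, so they need not match exactly. cDC1 against cDC2 gave 3 genes higher (24.1% of all tested genes) and 5 lower (10.7%, and 8 genes in 1 fit over all groups), or 7 (30.8%) and 12 (28.8%) with no minimum of fold. On the common scale the 5 membrane proteins summed to 138.6 ± 17 CPM in cDC1 and 306 ± 9.4 CPM in cDC2 (SD, n = 3 each), the V0 subunits to 96.2 ± 8.23 and 198 ± 11.3 CPM and the accessory subunits to 50.8 ± 4.79 and 92.6 ± 11.6 CPM. The 3 luminal proteins that are not enzymes went the other way, with 5062 ± 314 CPM in cDC1 and 1523 ± 133.4 CPM in cDC2. In the fit of this pair the median was -0.81 for membrane proteins, -0.56 for V0 subunits, -0.45 for accessory subunits and 1.17 for these 3. V1 subunits had a median of -0.19. Psap was at 5038, 4467 and 4922 CPM in cDC1 and 1288, 1239 and 1462 CPM in cDC2 (2.22 ± 0.07, adjusted p = 1.5e-17), and Gusb at 332, 243 and 294 CPM against 46.9, 55.1 and 56.2 CPM (2.82 ± 0.10, 2.3e-16). Both were several times higher in every cDC1 library, and Npc2 was at 1.17 ± 0.10, a call it lost in 1 fit over all groups (0.72). Tfeb was at 24.5, 24.3 and 26 CPM in cDC1 and 112.3, 112.7 and 115.5 CPM in cDC2 (-1.83 ± 0.11, adjusted p = 1.1e-12), the highest Tfeb of any group here. Npc1 (13.3 to 18.5 against 64.9 to 81.3 CPM, -1.88 ± 0.13), Tpp1 (-1.16 ± 0.16), Lamp1 (-1.08 ± 0.11) and Atp6v0c (-1.01 ± 0.11) were also lower in cDC1. Grn (0.56 ± 0.09) and Man2b1 (404 to 516 against 430 to 460 CPM, 0.37 ± 0.08) were not called, nor were Mitf (0.45 ± 0.31), Tfe3 (-0.26 ± 0.11) and Atp6v0d1 (-0.55 ± 0.14).

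The pDC libraries were spread widely, so comparisons with them are coarse. In simulations of cDC1 against pDC, 2-fold changes reached an adjusted p under 0.05 in 2% of cases and 4-fold changes in 57%. Of the genes under that p, with no minimum of fold, 10.61% had not been changed. cDC1 against pDC gave 2 higher (7.88% of all tested genes) and 5 lower (7.88%), or 2 (8.41%) and 6 (8.14%) with no minimum of fold. The 5 were 8 without the shallow pDC replicate 1, 3 with no low-count filter and 1 with a replicate block, and the 2 were also 2 without that library. Gusb was at 14.7, 27.5, 38, 42.8 and 63.2 CPM in pDC, all below cDC1 (2.96 ± 0.37, adjusted p = 0.00014), and Man2b1 at 35.2 to 189 CPM (2.16 ± 0.41, adjusted p = 0.00315). Npc1 was at 59.3 to 254 CPM in pDC (-3.21 ± 0.42, adjusted p = 0.00022) and Grn at 234, 720, 837, 1091 and 1556 CPM against 151.9 to 172 CPM in cDC1 (-2.43 ± 0.51, 0.00548), in both cases above every cDC1 library. Lamp2 (-1.40 ± 0.36), Gaa (-1.28 ± 0.33) and Tpp1 (-1.48 ± 0.41, with overlap) were also lower in cDC1. Those 3 and Grn lost the call under some of the alternatives that left out 1 cDC1 library. Psap (0.92 ± 0.44) and Asah1 (0.28 ± 0.34) were not called, nor were Tfeb (-0.66 ± 0.30), Mitf (-1.06 ± 0.40), Tfe3 (0.41 ± 0.29) and Atp6v0d1 (-0.15 ± 0.37).

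cDC2 against pDC gave 2 higher (11.7% of all tested genes) and 6 lower (23.2%), or 4 (15%) and 7 (24.1%) with no minimum of fold. Man2b1 (430 to 460 CPM in cDC2, 1.89 ± 0.37) and Tfeb (17 to 56.1 CPM in pDC, 1.26 ± 0.26) were higher in cDC2, and Grn lower (130.1 to 160.02 CPM, -2.89 ± 0.48, adjusted p = 0.00128), without overlap. The other 5 calls in that direction, Mitf (-1.42 ± 0.37), Npc1 (-1.23 ± 0.34), Psap (-1.19 ± 0.43), Npc2 (-1.17 ± 0.33) and Scarb2 (-1.15 ± 0.39), were each lost when a cDC2 library was left out, so that 1 to 7 remained. Without pDC replicate 1 the counts were 2 higher and 7 lower. Asah1 (-0.22 ± 0.30) and Lamp1 (0.41 ± 0.40) were not called, nor were Tfe3 (0.75 ± 0.27) and Atp6v0d1 (0.50 ± 0.33). Markers of other cells differed between the subsets too. The 10 macrophage markers summed to 536 to 561 CPM in cDC2, 50 to 53.7 CPM in cDC1 and 5.41 to 33.3 CPM in pDC, with 4, 5 and 3 of them at a median above 1 CPM. The 7 T and NK cell markers summed to 159.6 to 189 CPM in cDC2 (1 of 7), 10.5 to 13.7 CPM in cDC1 (3 of 7) and 150.3 to 634 CPM in pDC (3 of 7). The 7 erythroid markers summed to 20.2 to 24.7 CPM in cDC1 (5 of 7) and at most 5.08 CPM in the other subsets (0 of 7). Fibroblast markers summed to 733 CPM in pDC replicate 1 and to 24.5 to 74.9 CPM in the other 4 pDC libraries. The part of such cells in these differences was not tested. Atp6v0d2 was at 0 to 5 reads per splenic library.

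Set against cDC1, cDC2 and pDC in turn, day 9 double positive cells of PIB, PIP and C9a.SII had higher levels of most of these genes, but culture, tissue and sort differ too and cannot be told apart from the cocktail. PIB against cDC1 gave 24 higher (25.4% of all tested genes) and 3 lower (32.2%), or 27 (37.3%) and 4 (40.2%) with no minimum of fold, with a median of 2.43 against -0.11 over all genes. Lamp1 (1330 to 1548 CPM against 39, 31.1 and 31.7 CPM in cDC1, 5.18 ± 0.11), Tpp1 (4.66 ± 0.14), Lamp2 (4.33 ± 0.10), Gaa (4.20 ± 0.10), Gla (4.12 ± 0.20) and Mitf (3.48 ± 0.18) led. The reverse held for Gusb (-1.72 ± 0.09), Man2b1 (-1.60 ± 0.08) and Tfeb (-1.56 ± 0.13), and Psap (-0.37 ± 0.14) and Tfe3 (0.36 ± 0.10) were not called. C9a.MEF libraries already held Lamp1 at 654 to 711 CPM, far above the cDC1 level. Psap was lower in C9a.MEF (276 CPM per kb of exon) than in cDC1 (1752). The part of the fibroblast starting level in these contrasts was not tested.

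PIP against cDC2 gave 27 higher (29.3% of all tested genes) and 1 lower (26.7%), or 28 (40%) and 3 (38.4%) with no minimum of fold. Gla (69.8 to 86.9 against 3.05 to 3.81 CPM, 4.48 ± 0.14), Gaa (3.72 ± 0.10), Lamp1 (3.68 ± 0.11), Atp6ap2 (3.67 ± 0.10), Npc2 (3.64 ± 0.10) and Tpp1 (3.63 ± 0.10) led. Tfeb was lower (14 to 14.8 against 112.3 to 115.5 CPM, -3.06 ± 0.08, adjusted p = 1.3e-14), and Man2b1 (-0.91 ± 0.09) and Npc1 (0.47 ± 0.10) were not called, nor Tfe3 (-0.56 ± 0.09). Mitf was higher (2.46 ± 0.15), as was Atp6v0d1 (1.55 ± 0.10, and 2.58 ± 0.10 in PIB against cDC1).

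C9a.SII against pDC gave 16 higher (18.4% of all tested genes) and 2 lower (19.7%), or 20 (22.1%) and 3 (22.5%) with no minimum of fold. Gla (3.91 ± 0.42), Lamp1 (2.85 ± 0.38), Gaa (2.28 ± 0.29), Gusb (2.25 ± 0.28), Tpp1 (2.14 ± 0.32) and Atp6v1a (2.06 ± 0.30) led, and Atp6v0d1 rose too (1.52 ± 0.29). Tfeb (7.71 to 15.6 against 17 to 56.1 CPM, -1.99 ± 0.28, adjusted p = 0.00021) and Psap (739 to 1032 against 702 to 4037 CPM, -1.87 ± 0.37, adjusted p = 0.00189) were lower, Psap with overlap through pDC replicate 1. Without that library 16 were higher and 3 lower. Grn (-0.21 ± 0.37), Npc2 (0.68 ± 0.27), Mitf (0.60 ± 0.37) and Tfe3 (0.06 ± 0.31) were not called. Tfeb was thus lower than in the splenic subset in all 3 of these comparisons.

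**Figure D5:**
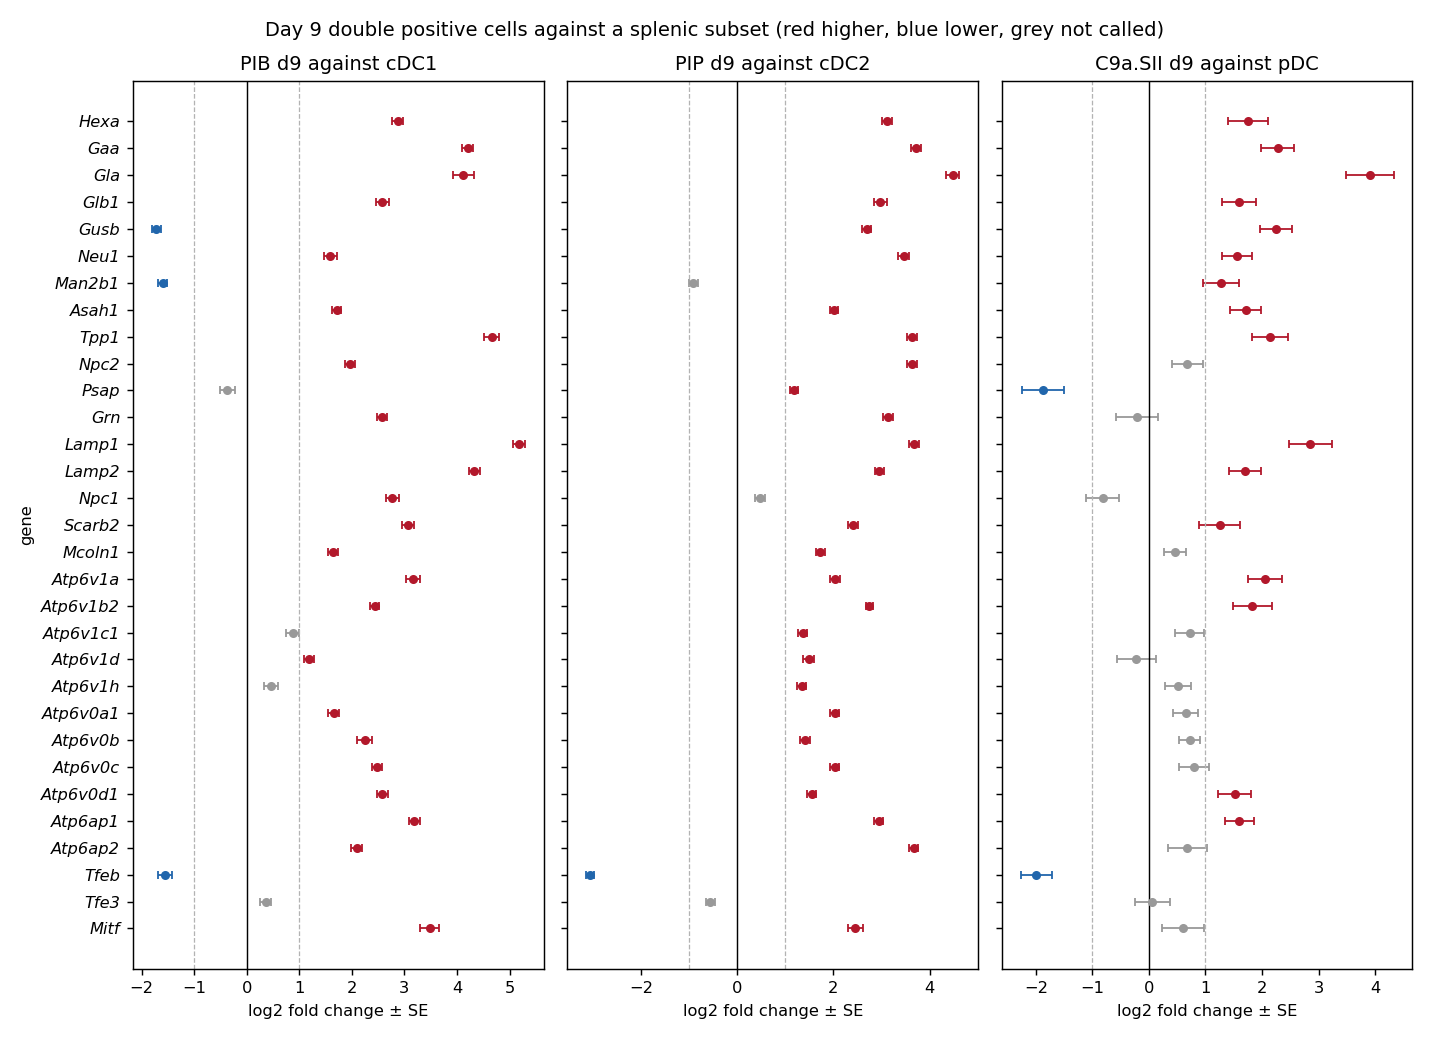
Log2 fold change ± SE (horizontal axis) of 31 genes (Atp6v0d2 left out) in day 9 double positive cells of PIB, PIP and C9a.SII against cDC1, cDC2 and pDC, with called genes in red (higher) or blue (lower) and dashed lines at 2-fold. Most points lie to the right, 24, 27 and 16 of them called, and Tfeb lies to the left in each panel.

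Other genes of the pathway, from lists drawn up beside the 32, moved in part with them on day 9 against MEFs, where 10.4% (PIB), 15.2% (PIP), 10.5% (C9a.SII) and 10.8% (hCD2.SII) of all tested genes were called higher. Of 34 further hydrolases and cofactors PIB raised 17 and lowered 1, PIP raised 22 of 34, C9a.SII raised 8 and lowered 1 of 33, and hCD2.SII raised 12 of 34, with medians of 1.00, 1.37, 0.37 and 0.76. Gm2a, the activator that presents GM2 ganglioside to hexosaminidase, was at 764 ± 83.8 CPM in PIP and 32.9 ± 1.11 CPM in MEFs (n = 4 each, 4.60 ± 0.06), and Acp5, a tartrate-resistant phosphatase, rose there by 3.72 ± 0.27. PIB raised Fuca1 (2.01 ± 0.08), which removes fucose. Galc, which degrades galactosylceramide, rose by 3.40 ± 0.13 in C9a.SII and by 3.22 ± 0.26 in hCD2.SII, followed by Rnaset2a (2.65 ± 0.40), while Hyal1 fell with PIB (-1.02 ± 0.11) and C9a.SII (-1.79 ± 0.27).

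Of 27 further membrane proteins 6 of 26 tested rose with PIB, 11 of 25 with PIP, 8 of 26 with C9a.SII and 8 of 25 with hCD2.SII, and none fell. The leading genes there are also leukocyte genes: Laptm5, which is in the pan-leukocyte list too, at 6.06 ± 0.43, 6.02 ± 0.32, 8.97 ± 0.30 and 7.99 ± 0.42 in that order (0.188 ± 0.169 CPM in C9a.MEF), Slc15a3 with PIB (6.44 ± 0.21), Mfsd12 with PIP (4.69 ± 0.10), Slc11a1 with C9a.SII (4.42 ± 0.52) and Cd68 with hCD2.SII (4.18 ± 0.41). Of the other pump subunits all 7 tested of 13 rose with PIP, 2 of 7 with PIB, 2 of 8 with C9a.SII and 1 of 8 with hCD2.SII. Atp6v0e rose by 1.66 ± 0.06 with PIP and 1.12 ± 0.12 with PIB, Atp6v0e2 by 1.66 ± 0.11 with PIP, Atp6v1f by 1.1 ± 0.09 with PIB and 1.03 ± 0.12 with C9a.SII, and Atp6v1g2 by 1.81 ± 0.39 with C9a.SII and 1.69 ± 0.53 with hCD2.SII.

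Of 24 regulators of the MiT/TFE factors PIB raised 1, PIP 4, C9a.SII 3 and hCD2.SII 3, and none fell. These counts were near or below the shares among all tested genes (10.4%, 15.2%, 10.5% and 10.8%), as were those of the 16 genes of mannose 6-phosphate sorting, by which hydrolases reach the lysosome. Fnip2, a partner of folliculin, rose with PIB (1.33 ± 0.07), PIP (1.75 ± 0.06) and hCD2.SII (1.38 ± 0.10). Rragd, a Rag GTPase through which mTORC1 holds the factors, rose with PIP (63.5 ± 0.589 over 10.6 ± 1.11 CPM, 2.64 ± 0.08) and C9a.SII (1.28 ± 0.17, with overlap), Rragb with C9a.SII (2.10 ± 0.38, with overlap) and Lamtor4 with hCD2.SII (1.44 ± 0.17). Of the sorting genes PIB raised 2 (Ap1b1 1.11 ± 0.07, M6pr 1.08 ± 0.05), PIP raised 2 (Nagpa 2.16 ± 0.10, Gnptg 1.33 ± 0.13) and lowered Sort1 (-1.37 ± 0.08), and both SII lines raised Sort1 (1.20 ± 0.08 and 1.24 ± 0.10) and lowered Gga2 (-1.04 ± 0.11 and -1.11 ± 0.26). Of 17 autophagy genes of the CLEAR network PIB raised 4 (10.4% of all tested genes), PIP 2 (15.2%), C9a.SII 0 (10.5%) and hCD2.SII 2 (10.8%). In PIB Sqstm1 (1.38 ± 0.08) and Uvrag (1.35 ± 0.09) led. PIP raised Vps18 (1.54 ± 0.06) and Vps11 (1.09 ± 0.07) and lowered Hif1a (60.7 ± 2.50 from 596 ± 20.7 CPM, -3.24 ± 0.06) and Wipi1 (-1.51 ± 0.07). C9a.SII lowered Wipi1 alone (-1.71 ± 0.09), and hCD2.SII raised Gpnmb (1.80 ± 0.17) and Vps11 (1.16 ± 0.16) and lowered Wipi1 (-1.35 ± 0.36).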

How the data were processed

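The authors deposited 1 table of counts, whole numbers for each Ensembl gene and library. Per the labels' protocols, RNA of sorted cells was made into cDNA with the SMARTer Stranded Total RNA-Seq Pico kit. Per the submitters' processing notes the authors used STAR 2.7.9a, Salmon 1.10.1 and build mm10. The tool that gave the counts, its annotation and its strand setting are not given in the sources used here, so overlapping and antisense genes may share reads. GENCODE M21 names matched 52029 identifiers. The 4981 without a name held 5.983 to 32.06% of each library's counts, median 13.16%, and stayed in totals and fits.

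Each comparison was fitted on its own groups with edgeR 4.0.16 (R 4.3.3): TMM factors, filterByExpr, robust quasi-likelihood fit and F test, Benjamini-Hochberg adjustment over all tested genes. Calls needed an adjusted p below 0.05 and a fold of 2 or more. Levels are CPM with TMM factors over all libraries. A count of 0 allows up to 3 counts, 0.1365 to 2.616 CPM by library. Intervals on reads cover counting error only.

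Named genes were the called genes, or the 6 of largest change per direction, the largest in the other direction, and up to 2 abundant genes without a call, with Atp6v0d1, Atp6v0d2, Tfeb, Tfe3 and Mitf throughout. Of other pathway lists up to 2 called genes per direction were named, on day 9 against MEFs, and 1 gene that the rule takes is not reported here. The genes, lists and tests were chosen with earlier results of these data known. The 22 comparisons were repeated with DESeq2 1.42.0 (size factors and Wald test), with no low-count filter, no fold minimum, a replicate block, 1 fit over all groups, and without each library or those under 2000000 counts. Replicate numbers have no stated meaning. Same-numbered libraries had a correlation of deviations over 0.1 in every pair only in hCD2.SII against hCD2.MEF on day 9 (0.11 to 0.238 over 3 pairs). There the fit with the block also called Npc1 (1.04). Weaker correlations, positive in every pair, were found in PIP day 9 against day 3 (0.0201 to 0.182) and PIB against cDC1 (0.0201 to 0.116). The same held for PIP against C9a.SII (0.0355 to 0.119) and cDC2 against pDC (0.00415 to 0.297). Of 266 pairs within a group none were copies, with a chi-square per degree of freedom of at least 2.88. In simulated counts, changes were put only into genes with many reads, and recovery was scored at an adjusted p below 0.05 with no minimum of fold. In PIB on day 9 against MEFs (15776 genes) 91% of genes changed 2-fold and 97% of those changed 4-fold were found. The shares were 44% and 91% in hCD2.SII (16448 genes) and 2% and 57% in cDC1 against pDC (17066 genes). In the last, 10.61% of the genes under that p were false. Calls with the 2-fold minimum were not scored. Promoter windows and start sites are those of RefSeq, gene positions those of GENCODE M21 on mm10.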

Additional observations from a re-analysis of the deposited data

Results flagged for a closer look

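In groups of 4 or 5 libraries, 10 of 287 gene and group pairs had 1 library far from the others by Dixon's criterion, where chance alone gives about 1 in 20. PIB day 9 double positive replicate 5 held Psap at 5997 CPM (others 3713 to 4023), Atp6v1c1 at 40.4 CPM (others 52.3 to 55.9) and Atp6v1h at 52.8 CPM (others 68.4 to 73.1). The shallow C9a.SII day 9 replicate 1 held Scarb2 at 187 CPM (others 314 to 337). C9a.SII day 3 replicate 2, with the low leukocyte sum, held Tfe3 at 61.1 CPM (others 46.5 to 48.6) and Atp6v0a1 at 94.4 CPM (others 57.3 to 63.5). Atp6v1a was at 111.995 CPM in hCD2.MEF replicate 1 (others 91.1 to 94.7). For Atp6v0d2 a single library had reads while the others had none: 0.0922 CPM in C9a.MEF replicate 3, 0.336 CPM in PIP day 9 replicate 1 and 2.78 CPM in C9a.SII day 9 replicate 2.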

How the results depend on the processing

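None of the values called for these genes turned its direction under any alternative run. Counts of called genes moved by over 1.5 times as follows. With no fold minimum the counts were 32 higher in PIB on day 9 against MEFs, 22 higher and 2 lower in C9a.SII, 24 higher in hCD2.SII, 28 higher and 1 lower in PIB on day 3, 16 and 25 higher in C9a.SII and hCD2.SII on day 3, 14 higher and 4 lower in PIB day 9 against day 3, 10 higher in PIP and 5 higher and 2 lower in hCD2.SII, 8 higher and 19 lower in PIB against PIP, 19 and 3 in PIB against C9a.SII, 23 and 1 in PIP against C9a.SII, 7 and 12 in cDC1 against cDC2, 4 higher in cDC2 against pDC and 3 lower in PIP against cDC2. With no low-count filter 4 genes were higher in C9a.SII on day 9 and 4 on day 3, and 3 and 1 were lower in cDC1 and cDC2 against pDC. In 1 fit over all groups 5 were higher in C9a.SII on day 3, 1 in PIB and 1 in C9a.SII day 9 against day 3 and 4 in cDC2 against pDC, and 1 was lower in PIP against C9a.SII, 8 in cDC1 against cDC2 and 2 in cDC2 against pDC. With the replicate block 1 was lower in cDC1 against pDC, and 5 were higher and 2 lower in cDC2 against pDC, where the numbers are not shown to pair. Without libraries under 2000000 counts 8 were lower in cDC1 against pDC. Leaving out each library gave 1 to 2 higher in PIB day 9 against day 3, 1 to 3 in PIP, 1 to 2 in PIB against PIP, 1 to 8 lower in cDC1 and 1 to 7 in cDC2 against pDC, and 0 to 1 lower between the SII lines. The cause was not tested. The fit over all groups moved the median of all genes by over 0.1 in many comparisons, with and without splenic cells. Among them were cDC1 against cDC2 (to 0.19 from -0.02), PIB against cDC1 (to -0.40 from -0.11) and cDC2 against pDC (to -0.42 from -0.13). The runs with no low-count filter and with the DESeq2 Wald test moved it further in some comparisons. In cDC2 against pDC they gave -1.22 and -1.41. Of the single-gene values 647 kept their side of the threshold, 18 gained and 21 lost a call in the fit over all groups. These counts were 672, 2 and 12 with the DESeq2 Wald test, and 652, 7 and 27 with no low-count filter. The replicate block gave 672, 4 and 10. Depth limits Atp6v0d2 and every contrast with pDC.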
